A study of Mus musculus with 6 samples.

Results

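T-lineage commitment in these thymocytes was followed through 10 transcription factor genes (*Bcl11b*, *Gata3*, *Tcf7*, *Lef1*, *Ikzf1*, *Runx3*, *Gfi1*, *Myb*, *Tox* and *Satb1*), read by the probe sets that the platform annotation assigns to exactly 1 of them. Of 22690 probe sets on the arrays 14 met that rule, and they covered 9 of the 10 genes (the arrays name 12393 genes in all). No probe set was annotated to *Tcf7* alone, so *Tcf7* was not analysed here. Thymocytes of C57BL6 mice aged 3 weeks were profiled on 6 Affymetrix arrays. A total of 3 arrays were labelled SCLtg LMO1tg, from CD3e-/- mice carrying the Sil-SCL and Lck-LMO1 transgenes, in which the *Sil* promoter drives SCL and the *Lck* promoter, active in immature thymocytes, drives LMO1. The other 3 were labelled control, from CD3e-/- mice without these transgenes. All 6 arrays therefore share the *Cd3e* deletion, which deprives the cells of a working pre-T cell receptor and arrests them at the last stage before it is needed. RNA came from dissected thymus without a stated sort, so in these bulk samples fewer cells of a type and less RNA per cell cannot be told apart.

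T cell precursors enter the thymus with several fates open to them. Notch signalling first induces TCF-1 and GATA3, which open the T-cell program, and Bcl11b is then switched on as the cells commit and lose access to the myeloid and natural killer fates. Ikaros, Runx factors, GFI1, MYB, TOX and SATB1 act around this core to silence progenitor genes, sustain the expansion of precursors, and later guide the CD4 and CD8 choice.

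The arrays went against their labels at 1 of the transgenic oncogenes. *Lmo1* stood at a log2 value of 5.01 ± 0.14 in the arrays labelled SCLtg LMO1tg and at 6.75 ± 0.10 in those labelled control (SD, n = 3 each). *Tal1*, the gene of SCL, did not pass the low-value filter, with 0 of the 6 arrays at or above the array's 40th percentile, and carries no test. Its low values ran with the labels, at 4.63 ± 0.08 in the arrays labelled SCLtg LMO1tg and 4.35 ± 0.08 in those labelled control (SD, n = 3 each). The groups did not overlap, which was also so for 13.2% of all probe sets tested. Values this low cannot decide whether the labels hold. The labels were used as they stand, and every difference is given as labelled SCLtg LMO1tg minus labelled control, so an exchange of labels would turn each sign below. Directions taken this way oppose those in the study's own list of changed genes. *Cd3e* itself read 8.58 ± 0.06 in the arrays labelled SCLtg LMO1tg and 8.52 ± 0.18 in those labelled control (SD, n = 3 each), and no source used here says whether its probe set lies in the deleted part. Of the thymocyte markers *Cd3g*, *Cd3d*, *Thy1*, *Ptcra*, *Rag1* and *Il2ra*, all 6 passed the filter on low values, and so did 6 of the 9 double and single positive markers with a probe set, *Cd4* included, while *Cd8a*, *Cd8b1* and *Ccr7* did not. Arrays differed in the signal of 18 bacterial hybridization control probe sets, which averaged between 8.91 and 9.49 in labelled SCLtg LMO1tg replicates 2 and 3 and labelled control replicate 1 (the low set) and between 10.40 and 10.62 in the other 3 arrays (the high set). They also differed in the 3-prime minus 5-prime log2 value of control probe sets, a measure of RNA quality. It ran between 1.48 and 2.86 for *Actb* and between 2.38 and 3.51 for *Gapdh*. Labelled control replicate 2 was the lowest array in both. The part of RNA quality in the members' values was not tested. Nothing states that replicate arrays represent different mice. The p-values thus measure the spread between arrays, which may be technical, and the number of arrays limits precision.

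None of the 7 commitment factors that could be tested differed between the labels beyond the spread of the arrays. Of the 14 probe sets, 11 (of *Bcl11b*, *Gata3*, *Ikzf1*, *Runx3*, *Gfi1*, *Myb* and *Satb1*) passed a filter that asks for at least 3 of the 6 arrays at or above the array's 40th percentile. Those of *Lef1* and *Tox* did not. By limma 0 of the 11 passed at a Benjamini-Hochberg adjusted p under 0.05, where 14 of all 13776 probe sets tested (0.102%) did, and 0 passed at an unadjusted p under 0.05, where 8.86% of all did. The Rank Products test that the methods name also called 0 of the 11 at a proportion of false positives under 0.1, where it called 0.755% of all. That threshold is looser than the paper's own. Log2 differences of the 11 ran between −0.18 and 0.21, with 9 below and 2 above 0. Their median absolute difference was 0.10, where that of all probe sets tested was 0.16. The 95% interval of the difference lay within 1 log2 unit of 0, that is between a fold of 0.5 and a fold of 2, for 10 of the 11 (92.3% of all probe sets tested) and within 0.5 for 4 of the 11 (37.0%).

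**Figure D1:**
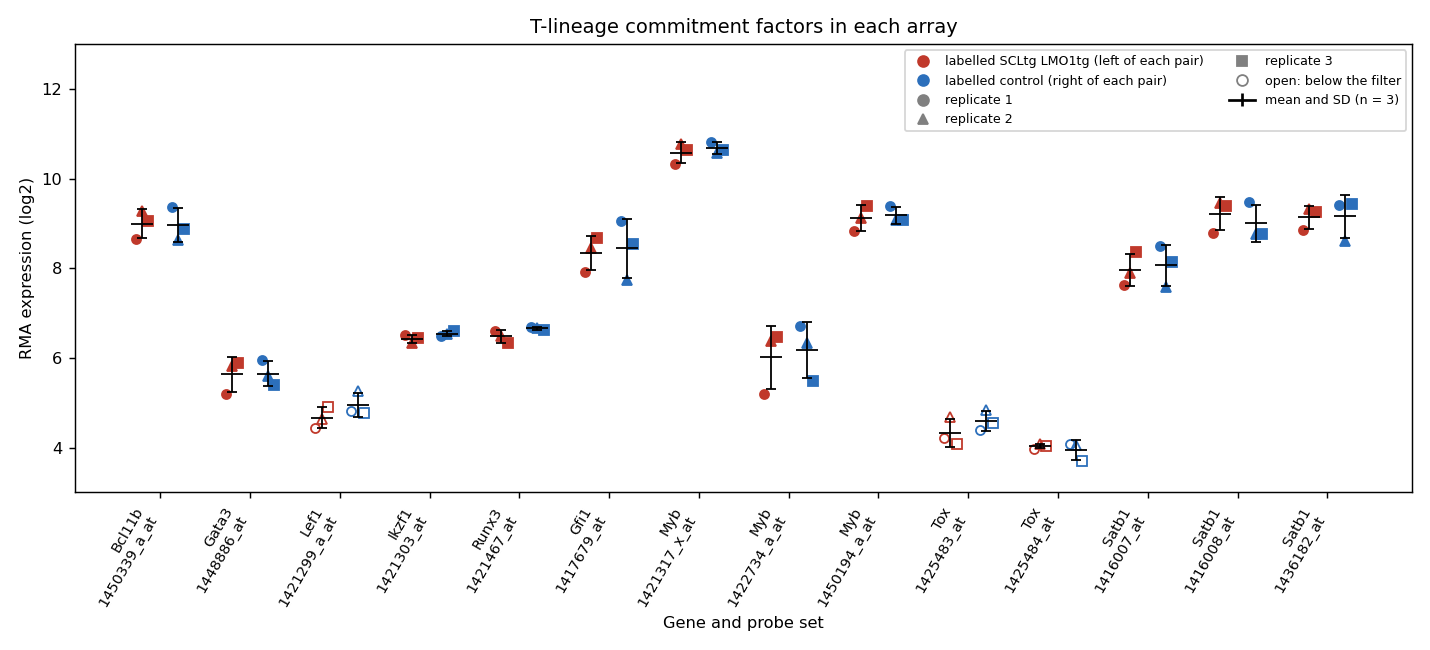
RMA expression (log2, y axis) of the 14 probe sets (x axis) in each array, red for labelled SCLtg LMO1tg and blue for labelled control, with marker shape for the replicate number, black bars for mean and SD (n = 3) and open markers for probe sets below the filter. Arrays of both labels overlap in 13 of the 14 probe sets, and *Runx3* is the exception.

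*Bcl11b* encodes the zinc finger repressor that marks commitment. It measured 8.65, 9.28 and 9.04 in the arrays labelled SCLtg LMO1tg, against 9.37, 8.63 and 8.87 in the arrays labelled control. Each label held both a high and a low array, and the groups overlapped fully. The means were 8.99 ± 0.32 and 8.96 ± 0.38 (SD, n = 3 each), a difference of 0.032 (SE 0.23, 95% interval −0.48 to 0.55, limma adjusted p = 0.963), or 1.02-fold with an interval of 0.715 to 1.46. The RefSeq window just upstream of its start (GRCm38.p6, minus strand, chr12:108003415-108003664) is shown because *Bcl11b* is the defining gene of the program. Capitals would mark CANNTG, the E-box core to which SCL and E protein dimers bind, GATAA, the core read by GATA factors, or TGTGGT, the core read by Runx factors, on either strand, and the window holds none of these motifs:

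Bcl11b: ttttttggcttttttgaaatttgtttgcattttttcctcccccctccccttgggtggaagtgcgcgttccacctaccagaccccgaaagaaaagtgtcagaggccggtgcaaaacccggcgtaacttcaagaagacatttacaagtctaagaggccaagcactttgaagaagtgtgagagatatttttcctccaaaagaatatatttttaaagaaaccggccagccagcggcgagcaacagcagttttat

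*Gata3*, the GATA factor needed from the first T-lineage steps, measured 5.19, 5.81 and 5.89 in the arrays labelled SCLtg LMO1tg and 5.95, 5.60 and 5.40 in the arrays labelled control. The lowest array was labelled SCLtg LMO1tg and the highest labelled control, while the other arrays labelled SCLtg LMO1tg lay above the other arrays labelled control, so the groups overlapped. The difference was −0.017 (SE 0.22, 95% interval −0.52 to 0.48, limma adjusted p = 0.979). *Ikzf1*, which encodes Ikaros, a zinc finger factor of all lymphoid precursors, varied less between arrays, with SDs of 0.091 and 0.064 (n = 3 each). It measured 6.50, 6.32 and 6.45 in the arrays labelled SCLtg LMO1tg, against 6.48, 6.54 and 6.61 in the arrays labelled control. Its difference was −0.12 (SE 0.14, 95% interval −0.42 to 0.19, adjusted p = 0.773), and the groups overlapped.

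*Runx3*, the Runx factor that later silences CD4 in cytotoxic T cells, had the lowest p of the members, although far from the threshold. Its arrays labelled SCLtg LMO1tg read 6.61, 6.49 and 6.34, and those labelled control read 6.68, 6.67 and 6.61. The groups did not overlap, the nearest arrays being labelled SCLtg LMO1tg replicate 1 and labelled control replicate 3, and 13.2% of all probe sets tested showed no overlap. The difference was −0.18 (SE 0.14, 95% interval −0.49 to 0.13, limma unadjusted p = 0.229, adjusted p = 0.684), or 0.883-fold. The control values were tightly grouped, with an SD of 0.037 (n = 3). Genes whose values over the 6 arrays were most like those of *Runx3* were *Irf1* (r = 0.996), *Gna11* (r = 0.986) and *Abca2* (r = 0.977), a description over arrays that all genes share. They were picked as the highest correlations in a fit of 8691 genes, members left out. Over 6 arrays such high values follow from the choice and show no link to *Runx3*. The window upstream of the more distal *Runx3* start is shown because it alone among the members' windows held the Runx core (GRCm38.p6, plus strand, chr4:135120395-135120644), with capitals as above:

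Runx3: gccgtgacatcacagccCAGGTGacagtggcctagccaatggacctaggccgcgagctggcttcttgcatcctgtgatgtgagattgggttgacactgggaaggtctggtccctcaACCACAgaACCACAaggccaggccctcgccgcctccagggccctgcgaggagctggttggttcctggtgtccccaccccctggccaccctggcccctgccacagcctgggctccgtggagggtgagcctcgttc

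*Gfi1* encodes a zinc finger repressor that guards against alternative fates. It measured 7.91, 8.45 and 8.66 in the arrays labelled SCLtg LMO1tg, against 9.04, 7.74 and 8.54 in the arrays labelled control. Labelled control held both the highest and the lowest array, and its SD of 0.66 exceeded the 0.39 of the arrays labelled SCLtg LMO1tg (n = 3 each). The difference was −0.10 (SE 0.32, 95% interval −0.82 to 0.61, limma adjusted p = 0.918). *Gfi1* is also a gene of neutrophil precursors, and neutrophil markers stood higher in the arrays labelled SCLtg LMO1tg. Averaged over the 12 of 13 markers with a probe set, the level was 7.04, 6.64 and 7.30 in those arrays, against 5.70, 6.27 and 6.33 in the arrays labelled control. All 12 passed the filter, 8 had a positive difference with a median of 1.13, and 0 passed the test. Their part in the *Gfi1* values was not tested. The window upstream of the distal *Gfi1* start (GRCm38.p6, minus strand, chr5:107725806-107726055) is shown as an example with 1 E-box core, in capitals:

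Gfi1: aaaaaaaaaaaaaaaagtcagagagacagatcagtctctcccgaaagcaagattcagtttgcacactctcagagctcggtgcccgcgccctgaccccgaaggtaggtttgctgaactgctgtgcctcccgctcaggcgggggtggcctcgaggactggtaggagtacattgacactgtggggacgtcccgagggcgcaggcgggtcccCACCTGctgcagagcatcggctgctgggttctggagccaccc

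Over the 20 such windows that RefSeq gives for 9 of the 10 genes, 250 bases each, CANNTG occurred in 10 windows of 5 genes, GATAA in 2 windows of 2 genes and TGTGGT in 1. Over all 32851 windows of the same length the shares were 66.2%, 22.6% and 14%, both strands being searched, and none of the 3 motifs contains another. A match describes the letters and is not a binding site.

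*Myb*, a factor needed by hematopoietic precursors and by thymocytes as they rearrange and expand, was read by 3 probe sets. Probe set 1421317_x_at, whose suffix marks probes that can also match other transcripts, gave 10.32, 10.78 and 10.63 in the arrays labelled SCLtg LMO1tg and 10.82, 10.57 and 10.64 in the arrays labelled control. Probe set 1450194_a_at gave 8.82, 9.11 and 9.40 in the arrays labelled SCLtg LMO1tg, against 9.40, 9.08 and 9.07 in the arrays labelled control. In both, labelled SCLtg LMO1tg replicate 1 was the lowest of all arrays and the other arrays interleaved. The differences were −0.097 (SE 0.16) and −0.069 (SE 0.18), with limma adjusted p of 0.843 and 0.899. Probe set 1422734_a_at varied most of all members, at 5.20, 6.38 and 6.46 in the arrays labelled SCLtg LMO1tg, against 6.70, 6.33 and 5.48 in the arrays labelled control. Its SDs of 0.70 and 0.63 (n = 3 each) left the widest interval, −1.01 to 0.70 around −0.16 (SE 0.38, adjusted p = 0.890), the only one among the 11 that reaches a full log2 unit.

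*Satb1* encodes a chromatin organizer of thymocytes with 3 probe sets, and these did not share a sign. Probe set 1416008_at had the largest difference among the 11 tested probe sets, with 8.79, 9.45 and 9.39 in the arrays labelled SCLtg LMO1tg, against 9.48, 8.77 and 8.76 in the arrays labelled control. The arrays of the low set were the 3 high ones and those of the high set the 3 low ones, with both labels among each. The difference was 0.21 (SE 0.25, 95% interval −0.35 to 0.76, limma adjusted p = 0.776). The other probe sets differed by −0.11 (1416007_at, SE 0.26, adjusted p = 0.888) and −0.018 (1436182_at, SE 0.24, adjusted p = 0.980). The first of these measured 7.63, 7.89 and 8.36 in the arrays labelled SCLtg LMO1tg, against 8.49, 7.58 and 8.14 in the arrays labelled control. For 1436182_at the values were 8.84, 9.32 and 9.25 in the arrays labelled SCLtg LMO1tg and 9.42, 8.61 and 9.44 in the arrays labelled control. All 3 intervals include 0, and the differences between probe sets of *Satb1* were not tested.

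Both remaining genes lay below the filter and carry no test. *Lef1*, the partner of TCF-1 in the TCF/LEF family, measured 4.44, 4.65 and 4.91 in the arrays labelled SCLtg LMO1tg and 4.81, 5.27 and 4.77 in the arrays labelled control, with 1 of the 6 arrays (labelled control replicate 2) at or above its array's 40th percentile. *Tox*, an HMG box factor of CD4 lineage development, had no array above that level at either probe set. Its probe set 1425483_at gave 4.21, 4.68 and 4.08 in the arrays labelled SCLtg LMO1tg, against 4.40, 4.84 and 4.56 in the arrays labelled control. At 1425484_at the values were 3.98, 4.07 and 4.05 in the arrays labelled SCLtg LMO1tg and 4.09, 4.06 and 3.69 in the arrays labelled control. The groups overlapped at all 3 probe sets. Each of the 11 probe sets inside the filter, *Gata3* included, had all 6 arrays at or above the 40th percentile of the array. In labelled SCLtg LMO1tg replicate 1, *Gata3* (5.19) and *Myb* 1422734_a_at (5.20) stood just above that level, which was 5.17.

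**Figure D2:**
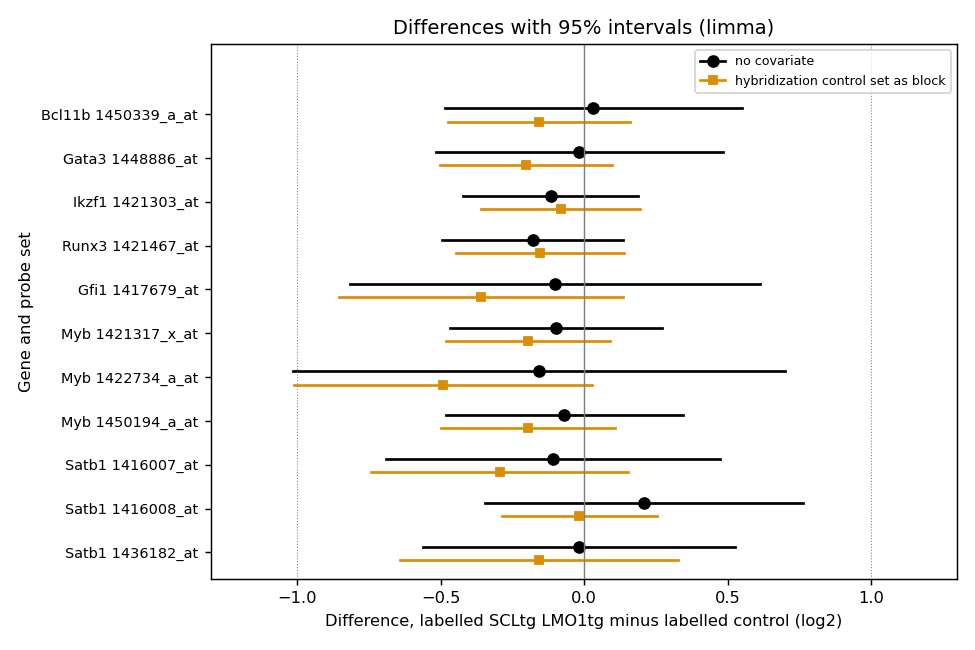
Differences (log2, x axis) of the 11 tested probe sets (y axis), labelled SCLtg LMO1tg minus labelled control, with 95% intervals from limma, in black without a covariate and in orange with the hybridization control set as a block. All intervals include 0, and the black one of *Myb* 1422734_a_at reaches −1.01.

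By their values over the arrays the members were sorted into 2 patterns that cut across the labels. *Bcl11b*, *Gata3*, *Gfi1*, *Myb* and *Satb1* moved together over the 6 arrays: pairwise correlations among their 9 probe sets ran between 0.21 and 0.96 with a median of 0.76, and 0 of the 36 were negative. *Ikzf1* and *Runx3* were set apart, with all 18 correlations against those probe sets negative, between −0.76 and −0.04 with a median of −0.28. The correlation of *Ikzf1* with *Runx3* was 0.51. Correlations among all probe sets were not taken for comparison. The patterns were drawn from these same correlations, so their signs follow from the sorting. Some pairs in the first pattern are probe sets of the same gene (*Myb* or *Satb1*). These correlations rest on 6 arrays that all probe sets share and describe these arrays alone. Labelled control replicate 1 was the highest array at 8 of the 11 probe sets, where it was the highest at 13.3% of all probe sets tested. Labelled SCLtg LMO1tg replicate 1 and labelled control replicate 2, both of the high set, were the lowest at 4 each, where together they were the lowest at 31.1% of all.

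Signal of the hybridization controls ran opposite to most of these factors, and in the same direction as *Ikzf1* and *Runx3*. The low set was higher on average at 9 of the 11 probe sets, by 0.52 for *Bcl11b*, 0.49 for *Gata3*, 0.65 for *Gfi1*, 0.67 for *Satb1* 1416008_at and up to 0.84 for *Myb* 1422734_a_at, where the low set was higher at 52.7% of all probe sets tested. It was lower for *Ikzf1* and *Runx3*, both by 0.13. All 3 arrays of the low set lay above all 3 of the high set at 5 of the 11 probe sets (*Bcl11b*, *Gata3*, *Satb1* 1416008_at and *Myb* 1422734_a_at and 1450194_a_at), against 19.2% of all probe sets tested. The sets were drawn from array controls and are not groups of the study, and the part of hybridization in the members' values was not tested.

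**Figure D3:**
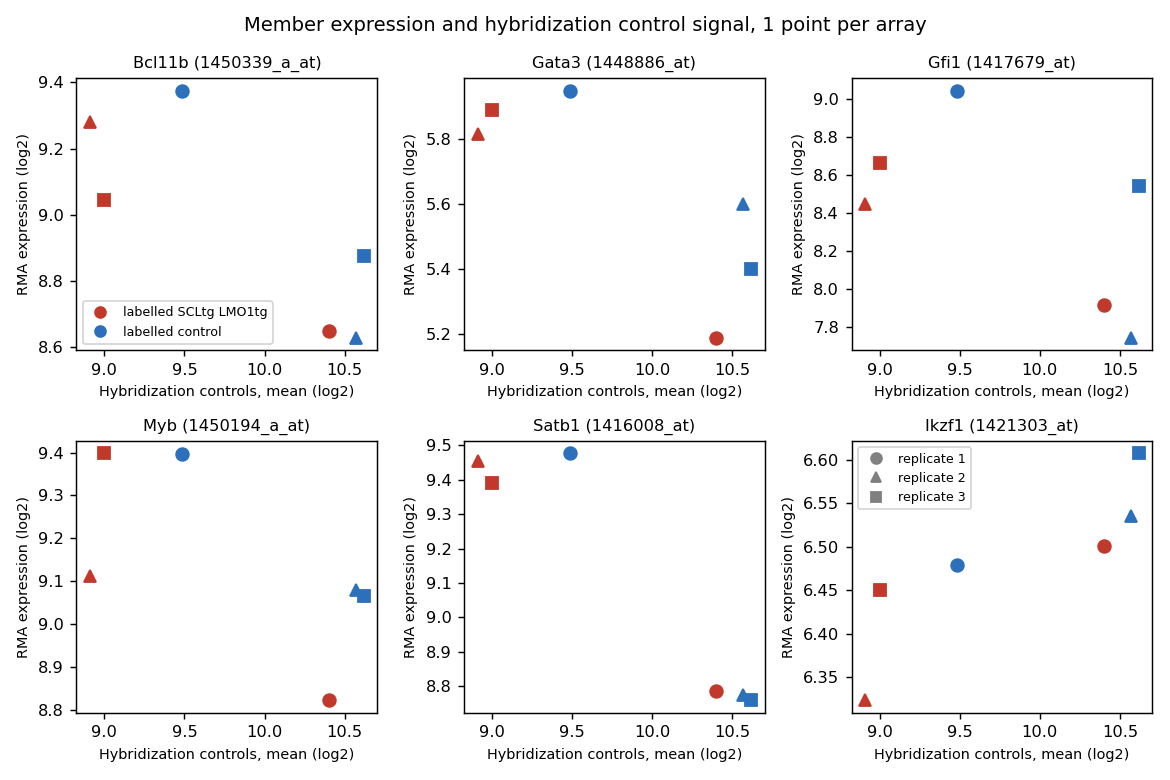
RMA expression (log2, y axes) of 6 members against the mean of the 18 hybridization control probe sets (log2, x axes), 1 point per array, red for labelled SCLtg LMO1tg and blue for labelled control, with marker shape for the replicate number. Arrays with control means up to 9.49 lie higher than the others for *Bcl11b*, *Gata3*, *Myb* 1450194_a_at and *Satb1* 1416008_at, and lower for *Ikzf1*.

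Since the labels were unevenly spread over the 2 sets, the differences were also taken within each set. Among the low arrays they were negative at all 11 probe sets. Among the high arrays they were negative at 10 of the 11, the exception being *Satb1* 1416008_at with 0.021, and 28.7% of all probe sets tested were negative in both. For *Bcl11b* the low arrays gave −0.21 and the high arrays −0.10, for *Gata3* −0.095 and −0.31, for *Gfi1* −0.49 and −0.23, and for *Runx3* −0.27 and −0.037. With the set as a block all 11 differences were negative, with a median of −0.20 where that of all probe sets tested was 0.0031, so *Bcl11b* and *Satb1* 1416008_at turned sign, to −0.16 (SE 0.14) and −0.017 (SE 0.12). The lowest was *Myb* 1422734_a_at at −0.49 (SE 0.23, 95% interval −1.01 to 0.027, limma unadjusted p = 0.0605, adjusted p = 0.571), and 0 of the 11 reached an unadjusted p under 0.05, where 9.3% of all probe sets tested did in the same fit. Probe sets that rise and fall together across arrays are not separate evidence of a direction, and each set holds a label with 1 array.

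The families of these factors gave no call either. Of 19 relatives, 11 were measured as genes, each through the probe set of highest mean level, and 0 passed, where 14 of 8691 genes (0.161%) did. Their median difference was −0.048, where that of all genes tested was −0.0080. *Bcl11a*, the paralog of *Bcl11b* in stem cells and B cells, had the largest difference, 5.63, 5.55 and 5.59 in the arrays labelled SCLtg LMO1tg against 5.11, 5.25 and 5.24 in the arrays labelled control, or 0.39 (SE 0.13, limma adjusted p = 0.395). *Cbfb*, the shared partner of Runx proteins, differed by 0.33 (SE 0.29, adjusted p = 0.694) and *Gata2*, the GATA factor of stem cells and mast cells, by −0.22 (SE 0.17, adjusted p = 0.662). The TCF/LEF and β-catenin partners gave 0 calls among 12 measured of 13, with a median of −0.12. The largest differences were those of the Groucho family genes *Tle3* (0.35), *Tle5* (−0.35) and *Tle1* (−0.33). Corepressors that work with Ikaros, Bcl11b, GFI1 and SATB1 also gave 0 calls, among 17 measured of 18 with a median of 0.15, and the largest differences were those of the deacetylase *Hdac2* (0.69, SE 0.39, adjusted p = 0.595), the NuRD subunit *Mta3* (−0.52, SE 0.18, adjusted p = 0.410) and *Hdac1* (0.46, SE 0.18, adjusted p = 0.461).

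Upstream of the members, the Notch, E protein, Ets and interleukin-7 inputs gave 0 calls among 14 measured, with 9 positive differences and a median of 0.13, and 6 of them had an unadjusted p under 0.05, where 9.45% of all genes did. *Il7r*, the receptor chain that keeps early thymocytes alive, read 9.14, 9.77 and 9.72 in the arrays labelled SCLtg LMO1tg against 8.76, 8.34 and 7.95 in the arrays labelled control, without overlap, but its difference of 1.20 (SE 0.24) did not pass (limma adjusted p = 0.120). The signal transducer *Stat5a* differed by −0.66 (SE 0.21, adjusted p = 0.371) and the Notch feedback inhibitor *Nrarp* by 0.61 (SE 0.17, adjusted p = 0.280).

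Downstream, 1 of 17 measured T cell identity genes rose, *Ptcra*, which encodes the pre-T cell receptor α chain (1.28, SE 0.16, limma adjusted p = 0.013), where 0.0805% of all genes tested rose and 0.0805% fell, and the list's median was −0.075. Of 14 measured regulators of progenitors and other lineages, genes that commitment normally shuts off, 2 fell in the arrays labelled SCLtg LMO1tg, *Nfe2* (−1.44, SE 0.17, adjusted p = 0.0077) and *Lyl1* (−1.22, SE 0.18, adjusted p = 0.032), with a list median of −0.14. The myeloid factor *Spi1*, a main antagonist of the T-cell program, differed by −0.10 (SE 0.14, adjusted p = 0.784). *Hhex* of the same list differed by −1.03 (SE 0.17, limma adjusted p = 0.072) and did not pass. The paper reports the opposite directions: SCL-LMO1 raised *Lyl1*, *Nfe2* and *Hhex*, and SCL inhibited *Ptcra*. Calls in these lists were not all kept when single arrays were left out. Over all probe sets the same omissions gave between 5 and 14 calls, against 14 with all arrays. Each omission leaves fewer arrays for every gene, so a lost call does not trace a difference to 1 array. *Ptcra* was lost without labelled SCLtg LMO1tg replicate 2 or 3 or labelled control replicate 2. The regulator list had 0 calls without labelled SCLtg LMO1tg replicate 2 or labelled control replicate 2, and 1 without labelled SCLtg LMO1tg replicate 3 or labelled control replicate 3.

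**Figure D4:**
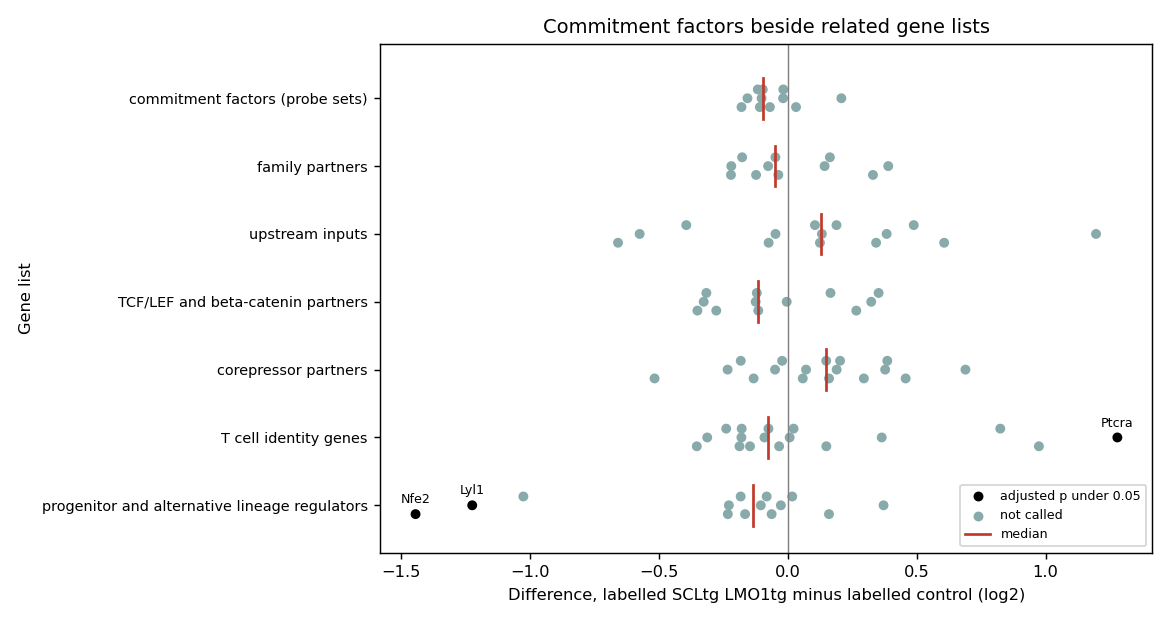
Differences (log2, x axis), labelled SCLtg LMO1tg minus labelled control, for the 11 tested commitment factor probe sets and for the measured genes of 6 related lists (y axis), each dot a probe set or gene, black where the limma adjusted p is under 0.05, with red bars for medians. The commitment factors lie between −0.18 and 0.21, and the black dots are *Ptcra*, *Nfe2* and *Lyl1*.

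Markers of other cells that also use these factors were set beside them. Erythroid markers, which matter for *Myb*, averaged 6.20, 6.43 and 6.93 over the 9 of 13 with a probe set in the arrays labelled SCLtg LMO1tg. The arrays labelled control averaged 5.98, 6.12 and 6.09, and *Hba-a1*, *Epb42* and *Rhag* lay below the filter. B cell markers, which matter for *Ikzf1*, averaged 5.83, 5.72 and 5.61 over 10 of 12, against 5.93, 6.11 and 5.90 in the arrays labelled control, with *Pax5* and *Ebf1* below the filter. Natural killer and innate lymphoid markers, which matter for *Runx3* and *Tox*, averaged 6.65, 6.44 and 6.47 over 11 of 12, against 6.41, 6.52 and 6.27 in the arrays labelled control, with *Ncr1* and *Klrc1* below the filter. Double and single positive thymocyte markers, cells in which *Tox* and *Satb1* are abundant, averaged 5.54, 5.58 and 5.44 over 9 of 12, against 5.73, 5.76 and 5.77 in the arrays labelled control, with *Cd8a*, *Cd8b1* and *Ccr7* below the filter. Arrays of the 2 labels did not overlap in the averages of the erythroid, B cell and positive thymocyte markers. Taken singly, 13.2% of all probe sets tested did not overlap either. The nearest arrays lay close for the erythroid (6.20 and 6.12), B cell (5.83 and 5.90) and positive thymocyte (5.58 and 5.73) averages. The B cell and positive thymocyte averages were also low, beside array medians between 5.57 and 5.70, and include probe sets below the filter. No gene of these 4 lists passed the test. Mast cell, basophil and eosinophil markers averaged 5.53, 5.40 and 5.55 over 10 of 11 in the arrays labelled SCLtg LMO1tg. The arrays labelled control averaged 5.60, 5.68 and 5.78, again without overlap, and *Fcer1a*, *Ms4a2*, *Mcpt4* and *Epx* lay below the filter. Of the 6 measured, 1 fell, *Cpa3*, which encodes a mast cell protease (−2.53, SE 0.16, limma adjusted p = 7.6e-05). The other measured markers differed by between −0.22 (*Gata2*) and 0.94 (*Prg2*, SE 0.22, adjusted p = 0.200), the only positive one. *Cpa3* weighs on the averages, which therefore do not describe the list as a whole. The part of all these markers in the members' values was not tested.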

How the data were processed

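Per the labels and the methods, RNA was amplified and hybridized to Affymetrix mouse arrays, and the authors summarised and normalized probe sets by RMA (affy, version not stated), giving 1 log2 value per probe set and array. The deposited log2 values still hold the probe sets that the authors later removed by MAS5 absent calls, and these calls were not repeated here. Values run between 2.36 and 14.12. RMA makes arrays more alike in distribution, so a change shared by most genes may not be seen. The deposited values were not fully alike, with array medians between 5.57 and 5.70 and 40th percentiles between 5.05 and 5.24. Of 22690 probe sets, 64 are controls, 691 are annotated to several genes and 1606 to none. Controls were left out of the tests. A probe set entered the tests if 3 or more arrays reached their own 40th percentile, which left 13776, and the comparison was fitted with limma 3.58.1 in R 4.3.3 without covariate and with Benjamini-Hochberg adjustment over all of them. Gene lists were read in a fit of 8691 genes by the probe set with the highest mean. Rank Products used 9 pairwise differences and 100 permutations. The scripts were tested on simulated data. Filters, normalization, variance model, array weights, blocks, single arrays left out, gene summaries, Rank Products and thresholds were varied. Same-numbered arrays had residual correlations of −0.63, 0.05 and −0.38 and were not taken as pairs. Members and lists were chosen with earlier results of these data known. By the rule for named genes the text gives all members, and of each list the called genes or else the 3 with the largest difference. *Spi1*, *Hhex*, *Prg2* and the marker genes below the filter were named after their values were seen. Promoter windows are from RefSeq, GRCm38.p6, and *Tox* had none.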

Additional observations from a re-analysis of the deposited data

How the results depend on the processing

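Under every alternative run, 0 member probe sets passed, Rank Products and an adjusted p under 0.1 included. A filter at the 60th percentile left 10 member probe sets to test, and *Gata3* was not among them. Over all probe sets between 5 and 20 passed under the limma alternatives at 0.05, except array weights, which gave 360 where equal weights gave 14. Array weights also gave the lowest adjusted p of a member, 0.143 (*Satb1*), with 1 member at an unadjusted p under 0.05. A block for the replicate number gave 8 calls over all probe sets and 0 among the members, with a lowest member adjusted p of 0.932. It left every difference as it was.

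Directions of the members were not stable. Quantile normalization once more turned *Gata3* to 0.031 and *Bcl11b* to −0.12. Centring on medians turned *Satb1* 1436182_at to 0.030 and *Gata3* to 0.031. Array weights turned *Satb1* 1416007_at to 0.071, *Satb1* 1436182_at to 0.32, *Gfi1* to 0.27, *Myb* 1421317_x_at to 0.083, *Myb* 1422734_a_at to 0.077 and *Gata3* to 0.15. The hybridization set as a block turned *Satb1* 1416008_at to −0.017 and *Bcl11b* to −0.16. The mean over the *Satb1* probe sets was 0.027. The cause was not tested.

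With 1 array left out, differences ran between −0.35 and 0.10 for *Satb1* 1416007_at, −0.29 and 0.13 for *Satb1* 1436182_at, −0.45 and 0.20 for *Gfi1*, −0.20 and 0.030 for *Myb* 1421317_x_at, −0.50 and 0.25 for *Myb* 1422734_a_at, −0.21 and 0.074 for *Myb* 1450194_a_at, −0.15 and 0.20 for *Gata3*, and −0.13 and 0.24 for *Bcl11b*. Most of the turned signs came without labelled SCLtg LMO1tg replicate 1 (7) or labelled control replicate 1 (6). *Ikzf1*, *Runx3* and *Satb1* 1416008_at kept their sign in these omissions. Calls ran between 0 and 1 among T cell identity genes and between 0 and 2 among progenitor and alternative lineage regulators, which had 3 under quantile normalization once more. Signal over background was not assessed, as absent calls are not part of the values used here, and the 3 probe sets of *Lef1* and *Tox* gave values too low to test.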
